A study of Mus musculus with 6 samples.

Results

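The genes described here are 33 chemokine ligands of the CXC, CC, CX3C and XC families, the atypical receptors *Ackr2*, *Ackr3* and *Ackr4*, and the signalling receptor *Cxcr4*, 37 genes of the 39179 that were counted. They were chosen by name as a family, and each symbol matched a single gene ID on the assembled mouse chromosomes. Expression was measured by RNA-seq in 6 libraries of cortical thymic epithelial cells (cTEC), 3 of Cxcl12DsRed- cTEC and 3 of Cxcl12DsRed+ cTEC, with 1 library of each subset from each of experiments A, B and C. The cells came from untreated Cxcl12::DsRed reporter mice at 10 weeks of age, in which the red fluorescent protein DsRed reports *Cxcl12*, and both subsets were sorted as CD45-, EpCAM1+, UEA1- and Ly51+ cells, those of Cxcl12DsRed- cTEC without DsRed and those of Cxcl12DsRed+ cTEC with it. Because the gate reads *Cxcl12*, the level of *Cxcl12* is given as a description of the sort and not as a result. The sources used here do not say how many mice gave each library. They speak of independent biological replicates in one place and of a technical triplicate in another, and p-values therefore reflect the spread among the 6 libraries, whatever its origin.

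Chemokines are small secreted or membrane-tethered proteins that direct the movement of cells carrying their G protein-coupled receptors. In the thymus CXCL12, CCL25, CCL19 and CCL21 are known to draw progenitors into the organ and to position developing thymocytes, which carry CXCR4, CCR9 and CCR7. Atypical receptors bind chemokines without classical G protein signalling and can remove them from the surroundings. Other ligands, such as the neutrophil-attracting CXC chemokines, are better known from inflammation and mucosal surfaces.

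Depth was 34574900 to 44969195 counts in genes in Cxcl12DsRed- cTEC and 38875590 to 51042679 in Cxcl12DsRed+ cTEC. The DsRed transcript stood at 17.6 to 27.7 CPM (counts per 1000000 counts of the TMM-scaled library size) in Cxcl12DsRed- cTEC and at 858 to 2054 CPM in Cxcl12DsRed+ cTEC. Of 9 cTEC marker genes, all were lower in every Cxcl12DsRed- cTEC library than in any Cxcl12DsRed+ cTEC library. Their summed level was 2188 to 2521 CPM in Cxcl12DsRed- cTEC and 7642 to 15300 CPM in Cxcl12DsRed+ cTEC, so the Ly51+ gate held cells with unlike levels of these markers. This list was chosen with earlier results of these data known, so its values are a description only. The summed markers of tuft cells, a chemosensory epithelial type, were 580 to 3241 CPM in Cxcl12DsRed- cTEC and 63.0 to 129 CPM in Cxcl12DsRed+ cTEC, with 11 of 12 genes higher in every Cxcl12DsRed- cTEC library. Those of myeloid cells were 186 to 990 CPM in Cxcl12DsRed- cTEC and 40.4 to 105 CPM in Cxcl12DsRed+ cTEC, with 3 of 12 genes (*Lyz2*, *Cd14*, *Itgam*) higher in every Cxcl12DsRed- cTEC library. Those of fibroblasts were 3824 to 5168 CPM in Cxcl12DsRed- cTEC and 1202 to 1972 CPM in Cxcl12DsRed+ cTEC, with 1 of 10 genes higher in every Cxcl12DsRed- cTEC library. Those of endothelium were 54.7 to 113 CPM in Cxcl12DsRed- cTEC and 751 to 5706 CPM in Cxcl12DsRed+ cTEC, with 11 of 12 genes lower in every Cxcl12DsRed- cTEC library, and the *Cxcl12*DsRed+ library of C stood apart at the top of that range. The summed levels of epithelial, mTEC, pericyte and thymocyte markers overlapped between the subsets, although 2 of 6 epithelial genes (*Epcam*, *Cdh1*) and 3 of 9 mTEC genes (*Cd80*, *Cldn4*, *Spib*) were higher in every Cxcl12DsRed- cTEC library, where 9.73% of all genes tested were, against 0 of 8 pericyte and 0 of 12 thymocyte genes. In sorted bulk samples, fewer cells of a type and less RNA per cell cannot be told apart.

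**Figure D1:**
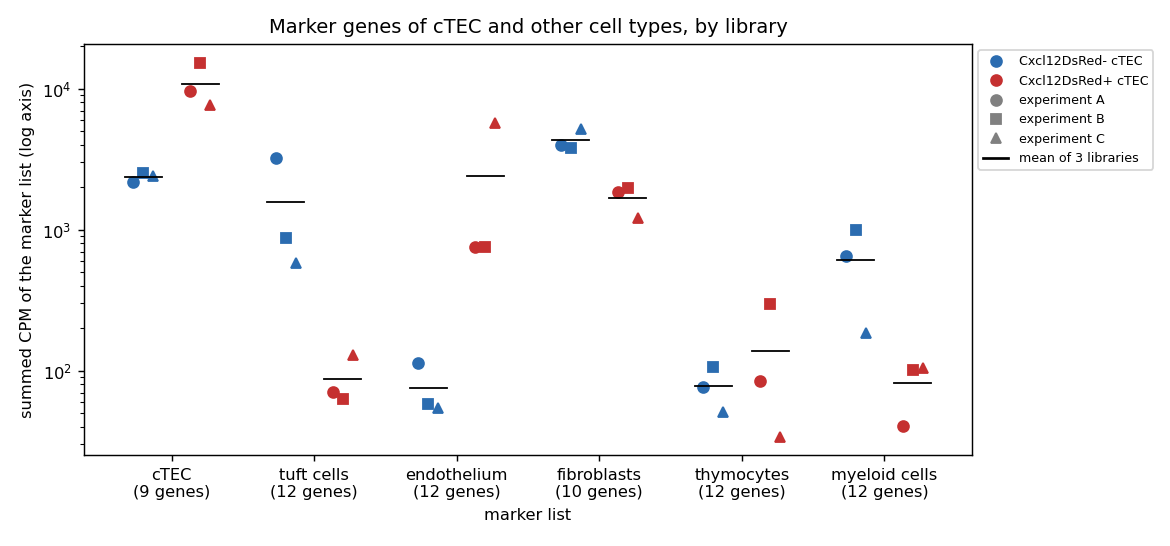
Summed CPM of 6 marker lists (x axis) on a log axis, with Cxcl12DsRed- cTEC on the left of each pair, Cxcl12DsRed+ cTEC on the right, a symbol for each experiment and a bar at the mean of 3 libraries. The cTEC and endothelial sums are lower and the tuft cell, fibroblast and myeloid sums higher in every Cxcl12DsRed- cTEC library, and the thymocyte sums overlap.

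All 37 genes had at least 1 count, and 32 passed the filter on low counts and were tested, with *Xcl1*, *Ccl3*, *Ccl24*, *Ackr2* and *Cxcr4* left out by it. With p-values from the quasi-likelihood test of edgeR, adjusted by Benjamini and Hochberg's method over all 15576 genes tested and called at under 0.05, 1 of the 32 rose in Cxcl12DsRed- cTEC (*Cxcl17*), where 0.449% of all genes tested rose, and 1 fell (*Cxcl12*, the gate gene), where 0.173% fell. The other 30 did not pass. The median log2 fold change, Cxcl12DsRed- cTEC over Cxcl12DsRed+ cTEC, was 0.47 over the 32 chemokine genes and 0.02 over all genes tested, and 11 of the 32 had an unadjusted p under 0.05, against 11.8% of all genes tested. The 3 libraries of one subset lay wholly outside those of the other for 9 of the 32 genes, against 19.0% of all genes tested. They were lower in every Cxcl12DsRed- cTEC library for *Cxcl12* and *Ccl25* (9.32% of all genes) and higher for *Cxcl2*, *Cxcl3*, *Cxcl14*, *Cxcl15*, *Cxcl17*, *Ccl11* and *Ccl17* (9.73% of all genes). Several genes, among them *Cxcl3* and *Cxcl15*, passed the filter through Cxcl12DsRed- cTEC alone. All of these counts and the median also include *Cxcl12*, whose direction the sort fixed. They therefore describe the tested genes and support no statement on the family. edgeR's likelihood ratio test allows less for uncertainty in the spread. It called 6 of the 32 higher and 2 lower (5.65% of all genes tested in either direction). DESeq2 called 7 higher and 1 lower (6.94%).

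**Figure D2:**
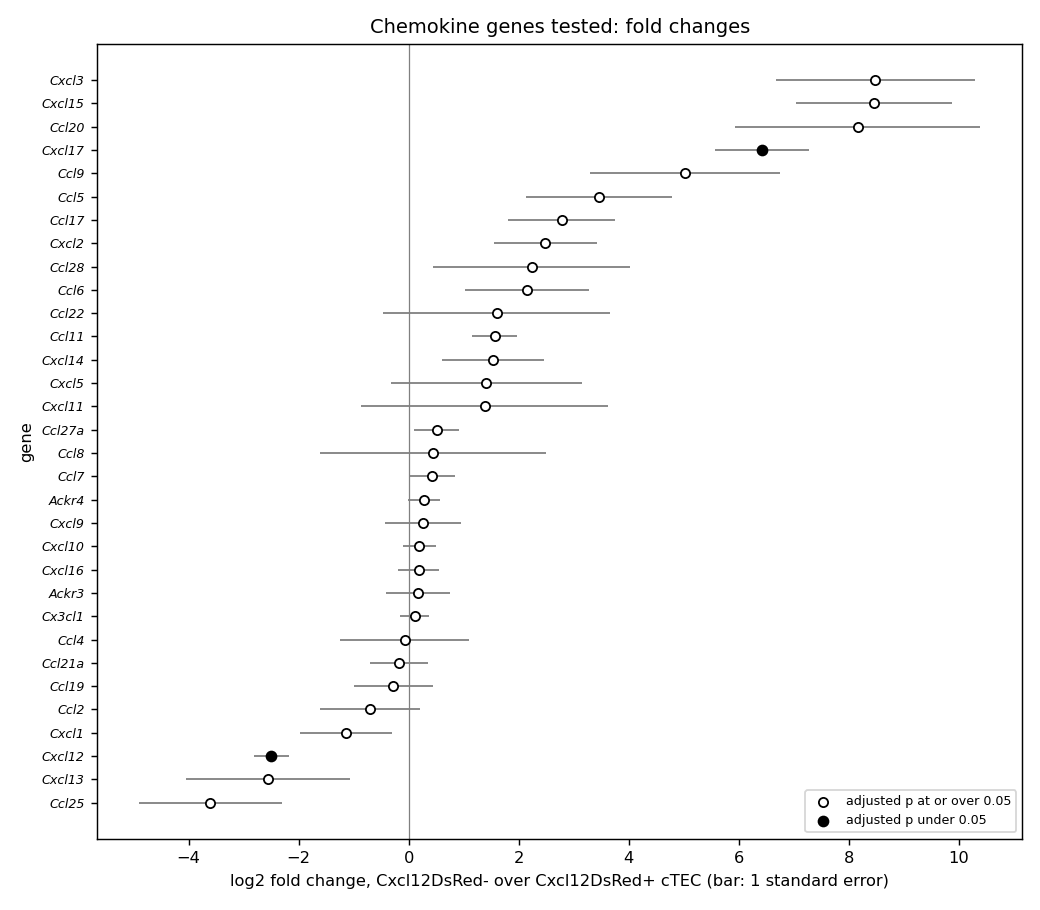
The log2 fold change of Cxcl12DsRed- cTEC over Cxcl12DsRed+ cTEC (x axis) for each of the 32 chemokine genes that were tested (y axis, ordered by fold change), with bars of 1 standard error and filled points where the adjusted p of edgeR's quasi-likelihood test was under 0.05. The filled points are *Cxcl17* at 6.41 and *Cxcl12* at −2.50, and most open points with large fold changes have wide bars.

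*Cxcl12* (ENSMUSG00000061353, chr6:117168535-117181367 in GRCm38), the ligand of CXCR4 and ACKR3, was at 144, 204 and 286 CPM in Cxcl12DsRed- cTEC of experiments A, B and C, against 891, 1213 and 1469.9 CPM in Cxcl12DsRed+ cTEC, and values are given in that order of experiments throughout. The subsets did not overlap, and *Cxcl12* transcripts remained well above 0 in every library of the DsRed- gate. Its call was lost when any 1 library other than the Cxcl12DsRed- cTEC library of C was left out (edgeR's quasi-likelihood test, adjusted p 0.1005 to 0.162). The sort fixed the direction of *Cxcl12*, so neither its call nor the loss of that call is a finding. The ratio of the mean levels was 0.177, Cxcl12DsRed- cTEC over Cxcl12DsRed+ cTEC. Set against the summed level of the 33 ligands, *Cxcl12* made up 2.83 ± 1.61% in Cxcl12DsRed- cTEC and 12.8 ± 7.46% in Cxcl12DsRed+ cTEC (SD, n = 3 each). In Cxcl12DsRed+ cTEC the share was 8.51, 8.51 and 21.4%, so C raised the mean. The largest part of each sum was *Ccl21a*, whose level is uncertain, as described below, and was lowest in that library. Gene length was not taken into account.

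*Ccl25* (ENSMUSG00000023235, chr8:4325210-4360020), which draws CCR9-bearing progenitors and thymocytes, was at 14.9, 324 and 15.4 CPM in Cxcl12DsRed- cTEC, against 867, 2227 and 1204 CPM in Cxcl12DsRed+ cTEC. Every Cxcl12DsRed- cTEC library was below every Cxcl12DsRed+ cTEC library, but within Cxcl12DsRed- cTEC the library of B was far above those of A and C. The log2 fold change was −3.60 (SE 1.29), and it did not pass the quasi-likelihood test (edgeR, adjusted p = 0.326; 0.131 with the experiment as a block). The likelihood ratio test gave an adjusted p of 0.0487, and when B's Cxcl12DsRed- cTEC library was left out the log2 fold change was −6.57 with a quasi-likelihood adjusted p of 0.0845. With the same limits of the sum, *Ccl25* made up 1.28 ± 1.85% of the summed ligand level in Cxcl12DsRed- cTEC and 13.8 ± 4.90% in Cxcl12DsRed+ cTEC (SD, n = 3 each). The gene overlaps *Elavl1* on the other strand, and the sources used here do not say whether counting used strand. The summed cTEC markers were 2188, 2521 and 2408 CPM in Cxcl12DsRed- cTEC and 9700, 15300 and 7642 CPM in Cxcl12DsRed+ cTEC. In every Cxcl12DsRed- cTEC library 9 of 9 genes were lower, as were 9.32% of all genes tested. The list was chosen with earlier results of these data known, so this count is a description and not independent evidence. *Ctsl* alone made up 1816, 1818 and 1974 CPM of the Cxcl12DsRed- cTEC sums. Within that subset *Psmb11*, *Prss16*, *Foxn1* and *Tbata* (28.5, 206 and 40.8 CPM) were highest in B, as *Ccl25* was. *Ly75*, *Dll4* and *Cd83* (10.5, 0.0911 and 8.83 CPM) were lowest in B, and *Enpep* and *Ctsl* lay between. The part of these markers in the *Ccl25* values was not tested.

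The windows around the start sites of *Cxcl12* and *Ccl25* are shown because both genes are known targets of the cTEC transcription factor FOXN1, whose core site is GACGC. They hold 300 bases each, 250 before and 50 after the RefSeq start (GRCm38.p6), at chr6:117168285-117168584 and chr8:4324960-4325259, both on the plus strand. Capitals mark GACGC or, for a match on the minus strand, its complement GCGTC.
Cxcl12: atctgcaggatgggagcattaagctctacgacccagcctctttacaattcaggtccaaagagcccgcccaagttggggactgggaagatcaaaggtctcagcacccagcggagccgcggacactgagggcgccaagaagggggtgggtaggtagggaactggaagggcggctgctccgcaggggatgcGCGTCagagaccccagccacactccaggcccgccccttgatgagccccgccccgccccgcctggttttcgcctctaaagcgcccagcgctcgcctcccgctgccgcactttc
Ccl25: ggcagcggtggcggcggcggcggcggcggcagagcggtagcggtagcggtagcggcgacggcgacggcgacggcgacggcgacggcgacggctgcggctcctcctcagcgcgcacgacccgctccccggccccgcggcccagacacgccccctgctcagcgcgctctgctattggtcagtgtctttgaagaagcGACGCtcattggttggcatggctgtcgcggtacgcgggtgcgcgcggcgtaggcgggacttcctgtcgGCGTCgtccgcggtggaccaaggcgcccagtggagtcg
In *Cxcl12* the match began 62 bases before the start site, on the minus strand. In *Ccl25* a match began 56 bases before it on the plus strand and another 12 bases after it on the minus strand, while the window of a second RefSeq start of *Ccl25* held none. GACGC on either strand was present in 27.2% of all 32851 promoter windows of the table, and in those of 4 of the 27 chemokine genes with a window (*Cxcl12*, *Ccl25*, *Ccl8* and *Ccl9*).

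*Ccl21a* (chr4:42772860-42773993) and *Ccl19* (chr4:42754525-42756577) encode the CCR7 ligands. *Ccl21a* was at 6412, 6404 and 3644 CPM in Cxcl12DsRed- cTEC, against 7287, 9278 and 2085 CPM in Cxcl12DsRed+ cTEC. *Ccl19* was at 10.7, 76.3 and 26.2 CPM in Cxcl12DsRed- cTEC, against 25, 71.2 and 41.1 CPM in Cxcl12DsRed+ cTEC. For both genes the subsets overlapped, with the lowest *Ccl21a* value in the *Cxcl12*DsRed+ library of C and *Ccl19* highest in B in both subsets. The log2 fold changes were −0.18 (95% interval −1.43 to 1.07) for *Ccl21a* and −0.28 (−1.99 to 1.43) for *Ccl19*, with adjusted p of 0.956 and 0.952 by edgeR's quasi-likelihood test. Of the 50-base windows of the longest transcript, 71.6% for *Ccl21a* and 59.1% for *Ccl19* are shared with near-identical copies, and reads that aligned to several places were not counted, so both levels are uncertain and may be too low. *Ccl21a* is also a gene of mTEC, whose summed markers, which hold *Ccl21a*, were 11160, 10720 and 7125 CPM in Cxcl12DsRed- cTEC and 12310, 13320 and 3162 CPM in Cxcl12DsRed+ cTEC. Nearly all of each sum was *Ccl21a*, *Krt5* and *Krt14*, and *Krt5* and *Krt14* are also in the epithelial list. *Krt5* was at 2031, 2116 and 1772 CPM in Cxcl12DsRed- cTEC and 3309, 2715 and 608 CPM in Cxcl12DsRed+ cTEC. The sums therefore say little of the other mTEC genes. The defining mTEC gene *Aire* was at 0, 16.5 and 0.932 CPM in Cxcl12DsRed- cTEC and at 0, 4.97 and 0 CPM in Cxcl12DsRed+ cTEC. The mTEC list genes *Cldn4*, *Spib* and *Cd80* did not overlap. *Cldn4* was at 293, 280.1 and 28.6 CPM in Cxcl12DsRed- cTEC and 1.96, 2.31 and 0.154 CPM in Cxcl12DsRed+ cTEC. *Spib* was at 309, 64.5 and 38.7 CPM in Cxcl12DsRed- cTEC and 2.73, 6.68 and 2.42 CPM in Cxcl12DsRed+ cTEC. *Cd80* was at 6.68, 14.9 and 1.82 CPM in Cxcl12DsRed- cTEC and 0.0189, 0 and 0 CPM in Cxcl12DsRed+ cTEC, and their part in the chemokine values was not tested.

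**Figure D3:**
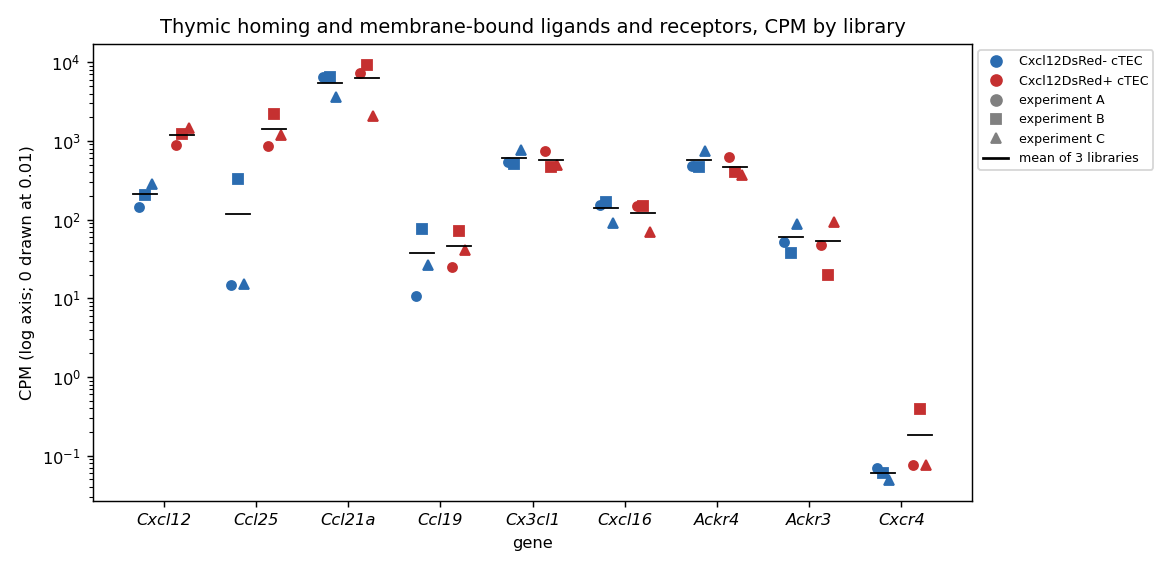
CPM on a log axis for *Cxcl12*, *Ccl25*, *Ccl21a*, *Ccl19*, *Cx3cl1*, *Cxcl16* and the receptors *Ackr4*, *Ackr3* and *Cxcr4*, with Cxcl12DsRed- cTEC on the left of each pair and Cxcl12DsRed+ cTEC on the right, a symbol for each experiment and a bar at the mean of 3 libraries. *Cxcl12* and *Ccl25* lie lower in every Cxcl12DsRed- cTEC library, *Cxcr4* is under 1 CPM throughout, and the other pairs overlap.

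The atypical receptor *Ackr4* (chr9:104084157-104126933), which binds CCL19, CCL21 and CCL25, was at 482, 471 and 748 CPM in Cxcl12DsRed- cTEC, against 624, 404 and 371 CPM in Cxcl12DsRed+ cTEC. *Ackr3* (chr1:90203980-90216751), which binds CXCL12 and CXCL11, was at 52.6, 37.2 and 88.8 CPM in Cxcl12DsRed- cTEC, against 47.7, 19.5 and 92.1 CPM in Cxcl12DsRed+ cTEC. Both receptors were well expressed in all 6 libraries and overlapped between the subsets. The log2 fold change of *Ackr4* was 0.28 (95% interval −0.40 to 0.96) and that of *Ackr3* 0.17 (−1.21 to 1.55), with adjusted p of 0.829 and 0.964 by edgeR's quasi-likelihood test. *Ackr4* overlaps *Acad11* on the other strand, which had 24891 counts over the 6 libraries where *Ackr4* had 133898.

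*Ackr2*, which scavenges inflammatory CC chemokines, was at 0.0461, 21.8 and 4.37 CPM in Cxcl12DsRed- cTEC, against 0.0943, 0.104 and 0.103 CPM in Cxcl12DsRed+ cTEC. It stood out in the *Cxcl12*DsRed- library of B and was near 0 in that of A and in all of Cxcl12DsRed+ cTEC, and it was not tested. *Cxcr4*, the receptor through which thymocytes respond to CXCL12, had 7 counts over the 3 Cxcl12DsRed- cTEC libraries and 26 over the 3 Cxcl12DsRed+ cTEC libraries. That is 0.0691, 0.0607 and 0.0491 CPM in Cxcl12DsRed- cTEC and 0.0754, 0.395 and 0.0771 CPM in Cxcl12DsRed+ cTEC, where 3 counts correspond to 0.0588 to 0.0868 CPM depending on the library. Of the 26 counts 19 were in the *Cxcl12*DsRed+ library of B, and the other 5 libraries had 2 to 4 each, so *Cxcr4* was at the limit of detection there and was not compared. The summed markers of thymocytes, which carry CD45 and which the sort left out, were also highest in that library, at 76.6, 106 and 50.8 CPM in Cxcl12DsRed- cTEC and 84.3, 297 and 34.1 CPM in Cxcl12DsRed+ cTEC, and their part in the *Cxcr4* values was not tested.

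The membrane-tethered ligands were expressed in all 6 libraries. *Cx3cl1* (chr8:94772009-94782427), the ligand of CX3CR1, was at 546, 513 and 761 CPM in Cxcl12DsRed- cTEC, against 744, 459 and 487 CPM in Cxcl12DsRed+ cTEC. *Cxcl16* (chr11:70453983-70459984), the ligand of CXCR6, was at 155, 169 and 91.1 CPM in Cxcl12DsRed- cTEC, against 148, 149.6 and 69.3 CPM in Cxcl12DsRed+ cTEC. The subsets overlapped for both, and *Cxcl16* was lowest in experiment C in both subsets. The log2 fold changes were 0.11 (95% interval −0.52 to 0.73) for *Cx3cl1* and 0.18 (−0.70 to 1.06) for *Cxcl16*, with adjusted p of 0.95 and 0.938 by edgeR's quasi-likelihood test.

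*Cxcl17* (ENSMUSG00000060188, chr7:25400053-25412886), a chemokine of mucosal epithelia, rose in Cxcl12DsRed- cTEC. It was at 194, 133 and 71.9 CPM in Cxcl12DsRed- cTEC, against 3.05, 1.17 and 0.411 CPM in Cxcl12DsRed+ cTEC. Every Cxcl12DsRed- cTEC library was above every Cxcl12DsRed+ cTEC library, and the lowest Cxcl12DsRed- cTEC value still lay over the highest of Cxcl12DsRed+ cTEC by a wide margin. The log2 fold change was 6.41 (SE 0.85; adjusted p = 0.0396 in edgeR's quasi-likelihood test), higher in all 3 experiments. The call was lost when the Cxcl12DsRed- cTEC library of A, that of B or any 1 library of Cxcl12DsRed+ cTEC was left out (adjusted p 0.0865 to 0.183), where the log2 fold change was 5.93 to 7.33, and it held when the Cxcl12DsRed- cTEC library of C was left out (adjusted p = 0.0469). It did not hold in limma voom (adjusted p = 0.230). The summed tuft cell markers, at 3241, 874 and 580 CPM in Cxcl12DsRed- cTEC and 70.8, 63.0 and 129 CPM in Cxcl12DsRed+ cTEC, were likewise highest in A and lowest in C within Cxcl12DsRed- cTEC. There the epithelial, mTEC, pericyte and endothelial sums were also highest in A and lowest in C, while the cTEC, fibroblast, myeloid and thymocyte sums were not. The part of any of these markers in the *Cxcl17* values was not tested.

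The neutrophil-attracting CXC chemokines, most of them known ligands of CXCR2 and marked by the residues ELR before the first cysteines, held no gene of 5 that passed edgeR's quasi-likelihood test, although 3 had an unadjusted p under 0.05, as did 11.8% of all genes tested. *Cxcl15*, known in mice as lungkine from airway epithelium, was at 15, 4.28 and 7.43 CPM in Cxcl12DsRed- cTEC, against 0.0189, 0 and 0.0514 CPM in Cxcl12DsRed+ cTEC. *Cxcl3* was at 8.52, 10.2 and 0.442 CPM in Cxcl12DsRed- cTEC, against 0, 0.0208 and 0.0257 CPM in Cxcl12DsRed+ cTEC. Every Cxcl12DsRed- cTEC library was above every Cxcl12DsRed+ cTEC library, where both genes were at or near 0, and *Cxcl3* was low in the *Cxcl12*DsRed- library of C. *Cxcl15* had 1095 counts in Cxcl12DsRed- cTEC and 3 in Cxcl12DsRed+ cTEC, a depth-scaled ratio of 436 with a 95% counting interval of 149 to 2119. *Cxcl3* had 723 counts in Cxcl12DsRed- cTEC and 2 in Cxcl12DsRed+ cTEC, a ratio of 432 with a counting interval of 119 to 3575, and these intervals cover counting error only. Neither passed edgeR's quasi-likelihood test (adjusted p = 0.064 and 0.0968), while the likelihood ratio test gave adjusted p of 2.0e-06 and 3.8e-04.

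*Cxcl2* was at 49.2, 24 and 9.94 CPM in Cxcl12DsRed- cTEC, against 1.07, 3.93 and 9.92 CPM in Cxcl12DsRed+ cTEC. Its subsets touched in C and were far apart in A, and the log2 fold change of 2.48 (SE 0.93) did not pass (edgeR's quasi-likelihood test, adjusted p = 0.36). *Cxcl1* was at 83.2, 87.5 and 158 CPM in Cxcl12DsRed- cTEC, against 31.7, 205 and 486 CPM in Cxcl12DsRed+ cTEC. It was lower in Cxcl12DsRed- cTEC in B and C but not in A, overlapped between the subsets, and had a log2 fold change of −1.14 (SE 0.83; edgeR's quasi-likelihood test, adjusted p = 0.711). *Cxcl5* stayed at or under 5.71 CPM in all libraries and overlapped. Of the 50-base windows of the *Cxcl2* transcript 5.35% are shared with *Cxcl3*, and *Cxcl1* has none.

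**Figure D4:**
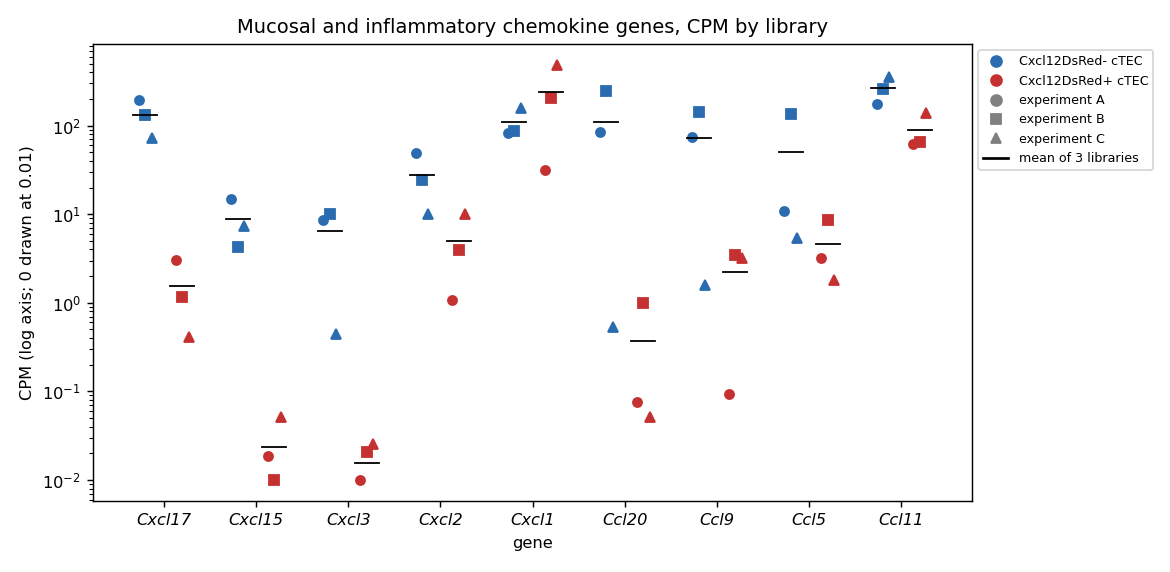
CPM on a log axis, with 0 drawn at 0.01, for *Cxcl17*, *Cxcl15*, *Cxcl3*, *Cxcl2*, *Cxcl1*, *Ccl20*, *Ccl9*, *Ccl5* and *Ccl11*, with Cxcl12DsRed- cTEC on the left of each pair, Cxcl12DsRed+ cTEC on the right, a symbol for each experiment and a bar at the mean of 3 libraries. *Cxcl17*, *Cxcl15*, *Cxcl3*, *Cxcl2* and *Ccl11* are higher in every Cxcl12DsRed- cTEC library, *Cxcl1*, *Ccl20*, *Ccl9* and *Ccl5* overlap, and *Ccl20* and *Ccl9* are low in the *Cxcl12*DsRed- library of C.

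The start-site windows of *Cxcl1*, *Cxcl2* and *Cxcl3*, neighbours on chromosome 5, are shown because the 3 genes hold the same letters near their starts but differed in level between the libraries. All 3 are on the plus strand (RefSeq, GRCm38.p6), at chr5:90890995-90891294, chr5:90903649-90903948 and chr5:90785851-90786150, and capitals mark matches to the kappaB consensus, the site of NF-kappaB, searched on both strands.
Cxcl1: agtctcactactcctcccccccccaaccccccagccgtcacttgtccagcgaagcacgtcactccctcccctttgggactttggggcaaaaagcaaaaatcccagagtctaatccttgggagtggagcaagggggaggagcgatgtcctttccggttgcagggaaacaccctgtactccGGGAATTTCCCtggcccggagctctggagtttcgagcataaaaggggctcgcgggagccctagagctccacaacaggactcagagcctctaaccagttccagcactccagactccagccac
Cxcl2: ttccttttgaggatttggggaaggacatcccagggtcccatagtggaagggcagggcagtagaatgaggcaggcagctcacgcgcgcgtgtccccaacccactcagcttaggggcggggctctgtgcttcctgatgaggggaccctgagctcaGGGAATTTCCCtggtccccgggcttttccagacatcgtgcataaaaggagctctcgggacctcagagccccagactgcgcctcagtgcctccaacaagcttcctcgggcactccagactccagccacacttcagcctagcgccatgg
Cxcl3: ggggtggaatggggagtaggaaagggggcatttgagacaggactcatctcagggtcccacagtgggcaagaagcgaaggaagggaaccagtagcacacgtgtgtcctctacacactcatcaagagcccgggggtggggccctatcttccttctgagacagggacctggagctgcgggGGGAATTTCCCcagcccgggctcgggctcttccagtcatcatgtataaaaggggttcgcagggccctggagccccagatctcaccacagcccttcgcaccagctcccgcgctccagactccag
The matches began 71, 97 and 73 bases before the start sites of *Cxcl1*, *Cxcl2* and *Cxcl3*, each with an overlapping match on the other strand that began 1 base later, and the 11 letters GGGAATTTCCC were identical in the 3 genes. These 11 letters, chosen after the windows were read, were in 12 of the 32851 promoter windows, while the kappaB consensus was in 8.46% of all windows and in those of 8 of the 27 chemokine genes (also *Cxcl10*, *Ccl9*, *Ccl20*, *Ccl27a* and *Ackr2*). A match describes the letters only. Over the same libraries *Cxcl1* was highest in the *Cxcl12*DsRed+ library of C (486 CPM), where *Cxcl3* was at 0.0257 CPM.

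Among the remaining CXC ligands, *Cxcl13*, the CXCR5 ligand that organizes B cell areas, was at 3.85, 0.0607 and 14.9 CPM in Cxcl12DsRed- cTEC, against 7.32, 42.4 and 61 CPM in Cxcl12DsRed+ cTEC. It was lower in Cxcl12DsRed- cTEC in each experiment, but the subsets overlapped, and the log2 fold change of −2.56 (SE 1.49) did not pass (edgeR's quasi-likelihood test, adjusted p = 0.607). *Cxcl14*, a homeostatic chemokine of epithelia, was at 2.42, 2.15 and 1.96 CPM in Cxcl12DsRed- cTEC, against 0.302, 1.1 and 0.848 CPM in Cxcl12DsRed+ cTEC. Its levels were low, and the subsets did not overlap although the log2 fold change of 1.53 (SE 0.92) did not pass (edgeR's quasi-likelihood test, adjusted p = 0.625).

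The interferon-induced CXCR3 ligands overlapped between the subsets. *Cxcl10* was at 359, 513 and 359 CPM in Cxcl12DsRed- cTEC, against 298, 262 and 514 CPM in Cxcl12DsRed+ cTEC, and *Cxcl9* was at 10.6, 11 and 9.94 CPM in Cxcl12DsRed- cTEC, against 4.49, 4.35 and 17.4 CPM in Cxcl12DsRed+ cTEC. Both were highest of all in the *Cxcl12*DsRed+ library of C, save that *Cxcl10* was about as high in the *Cxcl12*DsRed- library of B. *Cxcl11* was at 0 to 14.6 CPM in Cxcl12DsRed- cTEC and 0 to 6.14 CPM in Cxcl12DsRed+ cTEC, with 0 in both libraries of C. It is annotated as a polymorphic pseudogene in GENCODE M21, so its transcripts need not encode a working ligand, and it overlaps *Art3* on the other strand. The log2 fold changes of *Cxcl9*, *Cxcl10* and *Cxcl11* were 0.27, 0.20 and 1.38, and none passed (edgeR's quasi-likelihood test, adjusted p 0.903 to 0.952, with 0 at an unadjusted p under 0.05 and 0 called by DESeq2). The interferon-stimulated response element, searched by its consensus on both strands, was in the windows of 3 of the 27 chemokine genes (*Cxcl10*, *Cxcl14* and *Ccl19*) and in 3.44% of all windows.

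Of the 10 inflammatory CC ligands, 8 were tested and none passed edgeR's quasi-likelihood test, although 3 had an unadjusted p under 0.05, the likelihood ratio test called *Ccl9* and *Ccl11*, and DESeq2 called *Ccl5* as well. Of all genes tested 11.8% had such a p, 5.65% were called by the likelihood ratio test and 6.94% by DESeq2. *Ccl11* (chr11:82057823-82062955), the eosinophil attractant eotaxin, was at 173, 258 and 357 CPM in Cxcl12DsRed- cTEC, against 62, 66 and 139 CPM in Cxcl12DsRed+ cTEC. Every Cxcl12DsRed- cTEC library was above every Cxcl12DsRed+ cTEC library, by a smaller factor than for *Cxcl17* and with less spread. The log2 fold change was 1.56 (SE 0.41), higher in all 3 experiments, with an adjusted p of 0.158 by edgeR's quasi-likelihood test, 0.0778 with the experiment as a block, 0.0148 by the likelihood ratio test and 0.00612 by DESeq2. Its neighbours on chromosome 11 that bind CCR2, the monocyte attractants *Ccl2* and *Ccl7*, overlapped. *Ccl2* was at 17, 31.8 and 96 CPM in Cxcl12DsRed- cTEC, against 15.9, 57.2 and 162 CPM in Cxcl12DsRed+ cTEC, and *Ccl7* was at 89.6, 142 and 155 CPM in Cxcl12DsRed- cTEC, against 54.5, 157 and 76.8 CPM in Cxcl12DsRed+ cTEC. The level of *Ccl2* followed the experiment, lowest in A and highest in C in both subsets. The summed fibroblast markers were 3977, 3824 and 5168 CPM in Cxcl12DsRed- cTEC and 1862, 1972 and 1202 CPM in Cxcl12DsRed+ cTEC. Of these markers 1 of 10 (*Dcn*) was higher in every Cxcl12DsRed- cTEC library, near the 9.73% of all genes tested. The part of the fibroblast markers in the *Ccl11* values was not tested.

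*Ccl5*, which attracts T cells and monocytes, was at 10.8, 134 and 5.32 CPM in Cxcl12DsRed- cTEC, against 3.17, 8.66 and 1.83 CPM in Cxcl12DsRed+ cTEC. *Ccl9*, a mouse CCR1 ligand, was at 73.6, 143 and 1.59 CPM in Cxcl12DsRed- cTEC, against 0.0943, 3.45 and 3.16 CPM in Cxcl12DsRed+ cTEC. *Ccl6*, another mouse CCR1 ligand, was at 65.7, 8.19 and 6.5 CPM in Cxcl12DsRed- cTEC, against 3.17, 2.1 and 12.8 CPM in Cxcl12DsRed+ cTEC. In each of the 3 genes 1 or 2 Cxcl12DsRed- cTEC libraries were far above the rest, B for *Ccl5*, A for *Ccl6*, and A and B for *Ccl9*, and the subsets overlapped. The log2 fold changes were 3.46 (SE 1.32), 5.03 (SE 1.73) and 2.15 (SE 1.13) for *Ccl5*, *Ccl9* and *Ccl6*, with adjusted p of 0.366, 0.3 and 0.554 by edgeR's quasi-likelihood test. Leaving out the Cxcl12DsRed- cTEC library of B gave 0.82 for *Ccl5*, and leaving out that of A gave 0.26 for *Ccl6*. The summed myeloid markers, at 651, 990 and 186 CPM in Cxcl12DsRed- cTEC and 40.4, 101 and 105 CPM in Cxcl12DsRed+ cTEC, were also highest in the Cxcl12DsRed- cTEC libraries of A and B. The summed tuft cell markers were highest in the same libraries, and the part of either list in these values was not tested. Of the myeloid sums *Lyz2* alone made up 461, 801 and 128 CPM in Cxcl12DsRed- cTEC, against 19, 31.8 and 80.6 CPM in Cxcl12DsRed+ cTEC. Of the 12 myeloid genes 9 were tested, 6 with a positive and 3 with a negative log2 fold change, and *Itgax*, *Adgre1* and *C1qa* were too low to test. The sort left out cells that carry CD45, whose gene *Ptprc* was at 23.5, 8.53 and 4.02 CPM in Cxcl12DsRed- cTEC, against 8.48, 15.6 and 0.617 CPM in Cxcl12DsRed+ cTEC, with overlap. *Ccl8* ranged to 16.9 CPM in Cxcl12DsRed- cTEC and 13.8 CPM in Cxcl12DsRed+ cTEC with 1 library of each at or near 0, *Ccl3* and *Ccl4* stayed at or under 2.40 CPM, and *Ccl24* had 11 counts in 1 Cxcl12DsRed- cTEC library and none elsewhere. The XC ligand *Xcl1* likewise had 21 counts in the *Cxcl12*DsRed- library of C and 0 in the other 5 libraries.

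The CCR6 ligand *Ccl20* (chr1:83116766-83119167), known from epithelium over lymphoid tissue, was at 85, 243 and 0.54 CPM in Cxcl12DsRed- cTEC, against 0.0754, 0.999 and 0.0514 CPM in Cxcl12DsRed+ cTEC. In A and B the Cxcl12DsRed- cTEC level exceeded that of every Cxcl12DsRed+ cTEC library by far, while in C it was under 1 CPM in both subsets. The log2 fold change was 8.16 (SE 2.23), with an adjusted p of 0.174 by edgeR's quasi-likelihood test and 0.00234 by the likelihood ratio test, and when C's Cxcl12DsRed- cTEC library was left out it was 8.72 with a quasi-likelihood adjusted p of 0.0707. The CCR4 ligand *Ccl17* was at 0.968, 3.43 and 1.86 CPM in Cxcl12DsRed- cTEC, against 0.264, 0.333 and 0.308 CPM in Cxcl12DsRed+ cTEC. It was low but did not overlap, with a log2 fold change of 2.78 (SE 0.96; edgeR's quasi-likelihood test, adjusted p = 0.306). *Ccl22*, its partner ligand, stayed at or under 1.67 CPM in Cxcl12DsRed- cTEC and 0.936 CPM in Cxcl12DsRed+ cTEC. Of the CCR10 ligands, *Ccl27a* was at 13.4, 29 and 21.7 CPM in Cxcl12DsRed- cTEC, against 14.3, 17.8 and 13 CPM in Cxcl12DsRed+ cTEC, and *Ccl28* reached 4.96 CPM in 1 Cxcl12DsRed- cTEC library and at most 0.624 CPM in Cxcl12DsRed+ cTEC. *Ccl27a* overlapped between the subsets, shares 69.2% of its 50-base windows with near-identical copies, and overlaps the more highly counted *Il11ra1* on the other strand, so its level is uncertain.

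Levels were set against each other per kb of the union of all annotated exons of a gene. For some genes this union is much longer than the longest transcript, at 7445 against 2549 bases for *Ccl25*, 8176 against 5627 for *Cxcl12* and 5380 against 2698 for *Ackr4*. For *Cxcl10* it was 2252 against 2230 bases. Levels per kb of genes with a long union may therefore be too low beside the others. *Ccl21a* was highest in both subsets, at 6306 ± 1834 CPM per kb in Cxcl12DsRed- cTEC and 7146 ± 4269 CPM per kb in Cxcl12DsRed+ cTEC (SD, n = 3 each), and did not overlap the next gene in either. In Cxcl12DsRed- cTEC *Ccl11* (243 ± 85.0 CPM per kb), *Cxcl10* (182 ± 39.6), *Cxcl17* (175 ± 79.9), *Ccl7* (161 ± 43.4) and *Cx3cl1* (154 ± 34.2) came next. In Cxcl12DsRed+ cTEC these places were held by *Ccl25* (192 ± 95.2 CPM per kb), *Cxcl10* (159 ± 60.5), *Cxcl12* (146 ± 35.5), *Cx3cl1* (143 ± 39.9) and *Cxcl1* (128 ± 122). Among these genes each neighbour in the order overlapped the next. With this length their order within a subset is not resolved beyond the spread of 3 libraries, and another length may change it. Over all 36 neighbouring pairs, 35 overlapped in Cxcl12DsRed- cTEC and 34 in Cxcl12DsRed+ cTEC. The summed level of the 33 ligands was 8548, 9509 and 6127 CPM in Cxcl12DsRed- cTEC and 10470, 14260 and 6860 CPM in Cxcl12DsRed+ cTEC, with overlap between the subsets.

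**Figure D5:**
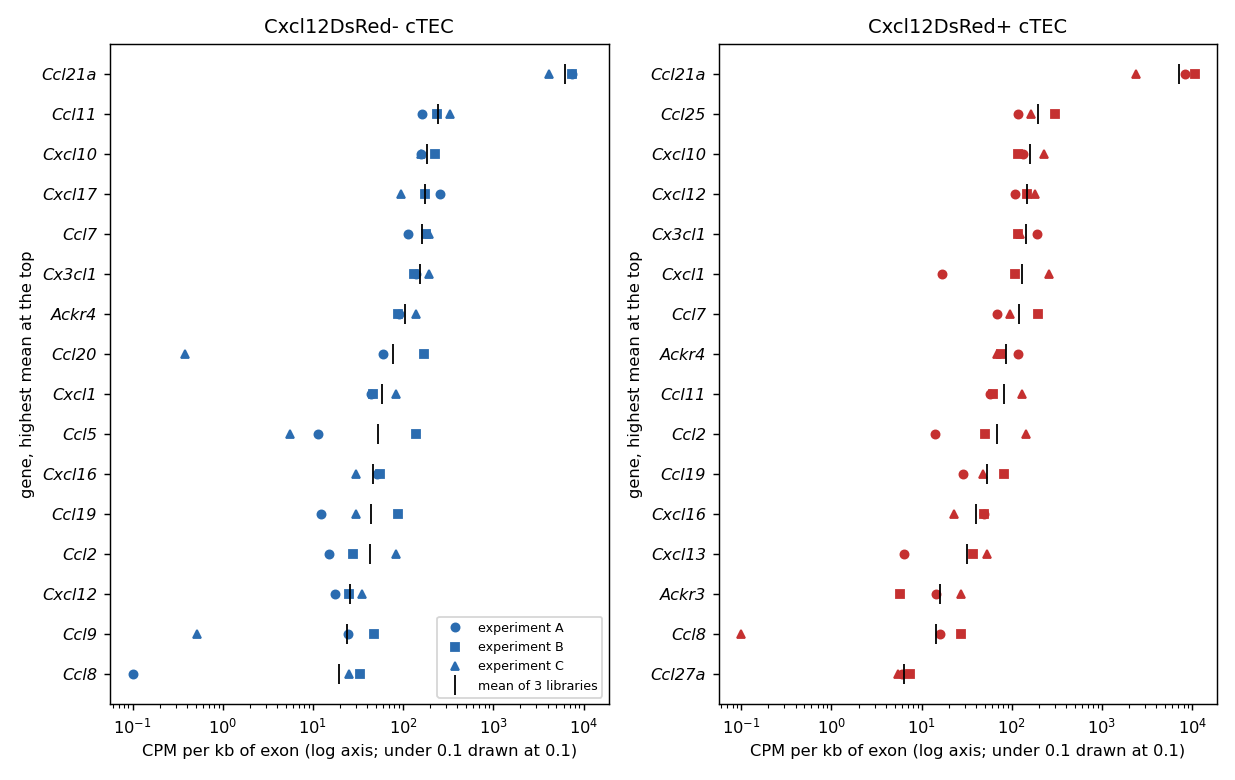
CPM per kb of exon on a log axis (x) for the 16 chemokine genes with the highest mean (y, highest at the top) in Cxcl12DsRed- cTEC on the left and Cxcl12DsRed+ cTEC on the right, with a symbol for each experiment and a line at the mean of 3 libraries. *Ccl21a* stands apart at the top of both panels, *Ccl11* and *Cxcl17* are among the next genes in Cxcl12DsRed- cTEC, and *Ccl25* and *Cxcl12* are among them in Cxcl12DsRed+ cTEC.

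The other genes of the chemokine pathway, 87 genes in 4 lists, held none that passed edgeR's quasi-likelihood test, where 0.623% of all genes tested passed. Among the genes of these lists that were tested, 10 had an unadjusted p under 0.05, edgeR's likelihood ratio test called 4 and DESeq2 called 6, where the shares over all genes tested were 11.8%, 5.65% and 6.94%. Of 19 further chemokine receptors, 10 were tested, with a median log2 fold change of 0.04. The smallest p-values were those of *Ccr2*, *Ccr4*, *Cxcr5* and *Ccr7* (edgeR, adjusted p 0.399 to 0.757). *Ccr2*, *Ccr4* and *Cxcr5* were at 23.2, 38.7 and 26.1 CPM in the *Cxcl12*DsRed- library of B and at or under 4.15 CPM in the other 5 libraries. *Ccr9*, the CCL25 receptor, and *Ccr7* were low and overlapped, at up to 12.5 and 26.2 CPM in Cxcl12DsRed- cTEC and up to 36.5 and 5.04 CPM in Cxcl12DsRed+ cTEC. Of 11 other ligands and ligand-like genes, 6 were tested, and the 4 with the smallest p were *Cklf*, *Mif*, *Cmtm3* and *Ppbp* (edgeR, adjusted p 0.907 to 0.954). *Mif*, a cytokine that binds CXCR4, was at 436, 463 and 431 CPM in Cxcl12DsRed- cTEC, against 478, 595 and 376 CPM in Cxcl12DsRed+ cTEC, and overlapped.

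Of 25 genes of receptor signalling and desensitization, 24 were tested, with a median log2 fold change of 0.01. *Rgs13*, a brake on G protein signalling, was at 277, 96.5 and 37.8 CPM in Cxcl12DsRed- cTEC, against 0.943, 0.0624 and 0.103 CPM in Cxcl12DsRed+ cTEC. Its subsets did not overlap, and the log2 fold change of 8.48 (SE 1.37) had an adjusted p of 0.059 by edgeR's quasi-likelihood test and 0.0251 with the experiment as a block. *Pik3cg*, a kinase downstream of G proteins, was at 99.3, 22.3 and 35.5 CPM in Cxcl12DsRed- cTEC, against 1.15, 0.603 and 0.129 CPM in Cxcl12DsRed+ cTEC. *Rgs2*, a regulator of the same family as *Rgs13*, was at 166, 69 and 86.8 CPM in Cxcl12DsRed- cTEC, against 7.49, 15.7 and 18.7 CPM in Cxcl12DsRed+ cTEC. Neither overlapped, with log2 fold changes of 6.36 (SE 1.01) and 2.94 (SE 0.49) and adjusted p of 0.0568 and 0.0621 by edgeR's quasi-likelihood test. *Rgs16* was at 5.21, 29.9 and 9.05 CPM in Cxcl12DsRed- cTEC, against 32.8, 52.8 and 463 CPM in Cxcl12DsRed+ cTEC, with its top value in the *Cxcl12*DsRed+ library of C, where the endothelial markers were also highest (adjusted p = 0.277 in edgeR). The summed tuft cell markers were highest in A among Cxcl12DsRed- cTEC, like *Rgs13*, at 3241, 874 and 580 CPM in Cxcl12DsRed- cTEC, against 70.8, 63.0 and 129 CPM in Cxcl12DsRed+ cTEC. The epithelial, mTEC, pericyte and endothelial sums were also highest in A among Cxcl12DsRed- cTEC. The part of any of these markers in the values of the signalling genes was not tested.

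Heparan sulphate chains hold chemokines at cell surfaces, and proteases such as DPP4 trim them. Of 32 such genes, 28 were tested and none passed in either edgeR test or DESeq2, with 3 at an unadjusted p under 0.05, as were 11.8% of all genes, and a median log2 fold change of 0.09. The 4 with the smallest p were *Hspg2*, which encodes the matrix proteoglycan perlecan, *Sdc4*, *Ndst2* and *Hpse*. *Hspg2* was at 67.8, 59.6 and 69.6 CPM in Cxcl12DsRed- cTEC, against 104, 77.3 and 208 CPM in Cxcl12DsRed+ cTEC, and *Sdc4*, a cell surface proteoglycan, was at 749.8, 399 and 439 CPM in Cxcl12DsRed- cTEC, against 338, 359.6 and 227 CPM in Cxcl12DsRed+ cTEC. Neither overlapped between the subsets, with log2 fold changes of −0.98 (SE 0.37) and 0.78 (SE 0.31). *Ndst2*, a sulphotransferase, also did not overlap, and *Hpse*, which cleaves the chains, did. The adjusted p of the 4 genes was 0.363 to 0.43 by edgeR's quasi-likelihood test. The subsets did not overlap for 5 of the 28 genes, *Dpp4* and *Glce* among them, against 19.0% of all genes tested. *Dpp4*, given after its values were seen, was at 7.42, 13.4 and 16.2 CPM in Cxcl12DsRed- cTEC, against 0.0754, 3.25 and 0.0257 CPM in Cxcl12DsRed+ cTEC. Its log2 fold change of 3.46 (SE 1.68) did not pass (edgeR's quasi-likelihood test, adjusted p = 0.513).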

How the data were processed

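The authors made poly(A) libraries with a low-input amplification kit, removed adapters (Trimmomatic 0.36), aligned to mm10 (STAR 2.7.3a), assigned reads to genes (HTSeq) and deposited the raw counts per gene of the 6 libraries in 1 table. Neither the annotation release nor the use of strand is stated in the sources used here. The 39277 entries comprised 39179 genes, the DsRed reporter, 5 summary lines of HTSeq and 92 spike-ins without counts, and only genes entered library sizes and tests. Relative to the counts in genes, reads in no gene were 5.87% to 9.35%, ambiguous reads 1.21% to 1.38% and reads aligned to several places 5.61% to 9.07%. Symbols, exon lengths and coordinates came from GENCODE M21 (GRCm38), in which 37693 IDs were found, and start-site windows from RefSeq (GRCm38.p6), which held 27 of the 37 genes. Amplified reads are not independent molecules, so floors and intervals cover counting error only.

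edgeR 4.0.16 (R 4.3.3) was used: low genes were removed with filterByExpr (minimum count 10), libraries were TMM-scaled, and the whole table was tested by quasi-likelihood (prior count 0.125), with p-values adjusted by Benjamini-Hochberg and called under 0.05. Alternatives were edgeR's likelihood ratio test, a block for the experiment in either test, limma voom (3.58.1), DESeq2 1.42.0, RLE factors, library totals, no filter or a floor on the mean of 1 CPM, and leaving out each library or experiment. Where DESeq2 returned no adjusted p, none was filled in. The test was also run on counts simulated with the spread fitted to each gene, and no statement here rests on that run. No pair of libraries agreed within sampling noise. The titles name the experiment of each library, which the main quasi-likelihood test did not use. Libraries of 1 experiment were taken as pairs only in the tests with the experiment as a block. Across genes, their departures from the means of their subsets had correlations of 0.0106, 0.0778 and 0.0716 in A, B and C, and those of libraries of unlike experiments had −0.0948 to 0.00374.

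The genes and lists were chosen with earlier results of these data known. Values in each library are given for *Cxcl12*, *Ccl25*, *Cxcr4*, *Ackr2*, *Ackr3*, *Ackr4*, *Ccl19* and *Ccl21a*, each gene called, each whose subsets do not overlap with 1 CPM or more on average in the higher subset, and each averaging 10 CPM or more in either subset, and for the other pathway lists the 4 smallest p. Further values were chosen after they were seen. The result of 1 marker list is not reported here. Plots were drawn with matplotlib 3.10.9.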

Additional observations from a re-analysis of the deposited data

How the results depend on the processing

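Of the chemokine genes, 1 fell (*Cxcl12*, the gate gene, whose direction the sort fixed) and 1 rose (*Cxcl17*) in Cxcl12DsRed- cTEC by edgeR's quasi-likelihood test. The likelihood ratio test called 2 lower and 6 higher, the same test with the experiment as a replicate block 2 and 6, DESeq2 1 and 7, and limma voom 0 and 0. Leaving out a library or an experiment gave 0 to 1 in each direction, where both calls held only without the *Cxcl12*DsRed- library of C. Over all genes tested 97 were called, against 880 by the likelihood ratio test, 1060 by that test with the replicate block, 1081 by DESeq2, 4 by limma voom, 168 with no filter and 0 to 135 in the leave-outs. Among the other pathway genes 0 were called, against 4 by the likelihood ratio test, 1 (*Rgs13*) with the replicate block in the quasi-likelihood test, 8 by the likelihood ratio test with the replicate block, 6 by DESeq2, 3 with no filter and 0 in the leave-outs. The replicate block in the quasi-likelihood test changed no other call among the genes described, and all genes called were 73 with it. RLE factors and library totals moved the median of all genes by 0.01 and −0.05 on the log2 scale and reversed no gene. *Ccl21a*, with a log2 fold change of −0.18, had 0.025 with the replicate block in either edgeR test and 0.0080 in limma voom. Further genes, none of them called, took either sign in the leave-outs, with log2 fold changes of −0.087 to 1.26 for *Cxcl9*, −0.17 to 0.60 for *Cxcl10*, −0.15 to 0.38 for *Cxcl16*, −0.22 to 0.40 for *Cx3cl1*, −1.69 to 0.38 for *Ccl2*, −0.051 to 3.78 for *Ccl6*, −1.31 to 0.18 for *Ccl19*, −0.64 to 0.21 for *Ccl21a*, −0.25 to 0.80 for *Ackr3* and −0.14 to 0.63 for *Ackr4*. Of 26 genes under 18 alternatives, 409 values kept direction and side of the threshold, 18 passed only in the alternative, 18 lost the call and 23 changed sign. By CPM without exon length, 6 of the 8 highest genes in Cxcl12DsRed- cTEC and 7 of 8 in Cxcl12DsRed+ cTEC were the same as per kb. The causes were not tested. With 3 libraries in each subset, genes led by 1 library, such as *Ccl5*, *Ccl6* and *Ccl25*, have wide errors. *Ackr2*, also led by 1 library, was not tested, and genes at a few counts cannot be compared.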

Other observations

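The receptors of 2 ligands described above were low, and they are given here after their values were seen. *Ccr3*, the receptor of CCL11, was at 0.023, 9.01 and 0 CPM in Cxcl12DsRed- cTEC, against 0, 0 and 0 CPM in Cxcl12DsRed+ cTEC. *Cxcr6*, the receptor of CXCL16, was at 0, 7.5 and 0 CPM in Cxcl12DsRed- cTEC, against 3.17, 0 and 0 CPM in Cxcl12DsRed+ cTEC. *Ackr1*, an atypical receptor known from venules and red cells, was at 9.42, 0 and 1.18 CPM in Cxcl12DsRed- cTEC, against 0, 0 and 28.1 CPM in Cxcl12DsRed+ cTEC, with its top value in the *Cxcl12*DsRed+ library of C. *Ccrl2*, a receptor-like gene that binds the attractant chemerin, was at 40.8, 18.1 and 21.8 CPM in Cxcl12DsRed- cTEC, against 10.4, 22.7 and 44.5 CPM in Cxcl12DsRed+ cTEC, with overlap.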
